A study of Mus musculus with 6 samples.

Results

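The 10 mitochondrially encoded mRNA genes described here are mt-Nd1, mt-Nd2, mt-Nd4, mt-Nd5, mt-Nd6, mt-Cytb, mt-Co1, mt-Co2, mt-Co3 and mt-Atp6. They were chosen by name, with earlier results of these data known, and found by Ensembl gene ID among the 54232 genes in each table of counts. All 10 had a row, 7 carried 9819 counts or more in each library, and 3 (mt-Co2, mt-Co3 and mt-Atp6) were at 0 to 3 counts in each. Whether the transcripts of the mitochondrial genome moved together was asked across 3 groups of CD1 mouse cortical neurons of wildtype genotype, with 2 RNA-seq libraries per group. The groups were a peptide amphiphile with PS2 (PA + PS2; library names with IKVAV and PEDOT-S), the peptide amphiphile alone (PA; library names with IKVAV) and the control (library names with PDL). Groups were read from the titles, because the treatment label names peptide amphiphile for all 6 libraries, controls included. The study's title is about scaffolds that conduct and carry a bioactive signal, and about how neurons mature on them. What sets repeat 1 apart from repeat 2 (a culture, an animal or a preparation) is not in the labels, so every p-value here reflects the spread among these 6 libraries, which may be technical.

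The mitochondrial genome is a small circular DNA present in many copies per cell. It encodes the ribosomal RNAs, the tRNAs and a handful of core subunits of the respiratory chain and ATP synthase, while the nucleus encodes the other subunits and the enzymes that copy and transcribe it. Both strands are transcribed as long polycistronic precursors, which are cut at the tRNAs into single messages, so that neighbouring messages begin as one molecule and their final levels also depend on processing and decay. Neurons use oxidative phosphorylation for most of the ATP that ion pumping and synaptic transmission consume.

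By role, mt-Nd1, mt-Nd2, mt-Nd4, mt-Nd5 and mt-Nd6 encode membrane subunits of complex I (NADH dehydrogenase). The gene mt-Cytb encodes cytochrome b of complex III. The genes mt-Co1, mt-Co2 and mt-Co3 encode the catalytic core of complex IV (cytochrome c oxidase), and mt-Atp6 encodes a membrane subunit of ATP synthase. On GRCm38, 9 of the 10 genes are annotated on the plus strand, from mt-Nd1 at chrM:2751-3707 to mt-Cytb at chrM:14145-15288, and 1, mt-Nd6 at chrM:13552-14070, on the minus strand. They are single-exon genes, and the annotation gives 13 protein-coding genes among 37 mitochondrial genes. The sources used here do not say whether counting used strand, so reads of mt-Nd6 cannot be told apart from reads of the opposite strand, and mt-Nd5 and mt-Nd6 share 14 annotated bases.

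The members with almost no counts are those with an exact nuclear copy. An alignment of each gene to the GENCODE M21 transcripts found Gm28661 identical to mt-Co2 over 681 of its 684 bases, Gm10925 identical to mt-Atp6 over 678 of 681 bases, and Gm28437 identical to mt-Co3 over 783 of 784 bases. These pseudogenes lie side by side on chromosome 1. Together with neighbouring copies they run in register with the mitochondrial genome over 3414 bases, chr1:24612775-24616188 on the minus strand against chrM:6390-9803. Their first 60 bases are shown beside those of the gene they match, as GENCODE gives them for GRCm38. No base differs between gene and copy.
mt-Co2, chrM:7013-7072, plus strand: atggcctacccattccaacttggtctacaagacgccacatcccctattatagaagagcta
Gm28661, chr1:24615506-24615565, minus strand: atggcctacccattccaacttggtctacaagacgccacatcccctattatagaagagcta
mt-Atp6, chrM:7927-7986, plus strand: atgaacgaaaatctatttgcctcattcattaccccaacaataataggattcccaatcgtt
Gm10925, chr1:24614592-24614651, minus strand: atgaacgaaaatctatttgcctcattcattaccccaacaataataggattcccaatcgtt
mt-Co3, chrM:8607-8666, plus strand: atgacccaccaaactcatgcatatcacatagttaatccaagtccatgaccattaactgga
Gm28437, chr1:24613912-24613971, minus strand: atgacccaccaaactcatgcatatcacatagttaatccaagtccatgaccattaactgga

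The well-counted members have either no copy among annotated transcripts under the same limits (mt-Nd1) or copies that differ along their length or match only part of the gene. The nearest copy of mt-Cytb, Gm11410, was 92.9% identical over 1142 bases, and that of mt-Nd6, Gm11408, was 93.6% identical over 519 bases. The start of each of these alignments is shown for contrast, with the differing bases in capitals.
mt-Cytb, chrM:14146-14205, plus strand: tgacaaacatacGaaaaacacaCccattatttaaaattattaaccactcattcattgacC
Gm11410, chr4:80003990-80004049, plus strand: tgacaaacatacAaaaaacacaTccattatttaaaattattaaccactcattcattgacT
mt-Nd6, chrM:14011-14070, minus strand: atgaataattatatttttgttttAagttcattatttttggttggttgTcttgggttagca
Gm11408, chr4:80003855-80003914, minus strand: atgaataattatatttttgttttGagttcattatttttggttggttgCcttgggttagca

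The share of each gene's 50-base windows that also occur exactly in a nuclear transcript separated the counted genes from the near-empty ones, with 1 exception. It was 100% for mt-Co2, 99.9% for mt-Co3 and 99.5% for mt-Atp6. The protein-coding genes outside the 10 that also have a copy gave the same picture: mt-Nd3 had 98.0% of its windows shared and 0 to 2 counts per library, and mt-Nd4l had 98.8% shared and no count in any library. The exception was mt-Atp8, a short ATP synthase gene with 0% of windows shared and no count in any library. The search covered annotated transcripts alone, and mt-Atp8 lies inside the stretch that runs in register with chromosome 1, so whether it has a copy there was not tested. It overlaps mt-Atp6 by 43 bases. In the well-counted members the shared share was 62.2% in mt-Nd4, 51.1% in mt-Co1, 8.19% in mt-Nd2, 7.61% in mt-Nd5 and 0% in mt-Nd1, mt-Nd6 and mt-Cytb. The exact nuclear copies were near-empty too: Gm28661, Gm10925 and Gm28437 had 0 to 5 counts in each library. The sources used here give neither the read length nor the handling of reads that match several places, so the near-zero values of mt-Co2, mt-Co3 and mt-Atp6 are values of the tables and not levels of those transcripts. Their part in the totals was not tested, and those 3 genes did not pass the filter on low counts, so that 7 of the 10 members entered every test.

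**Figure D1:**
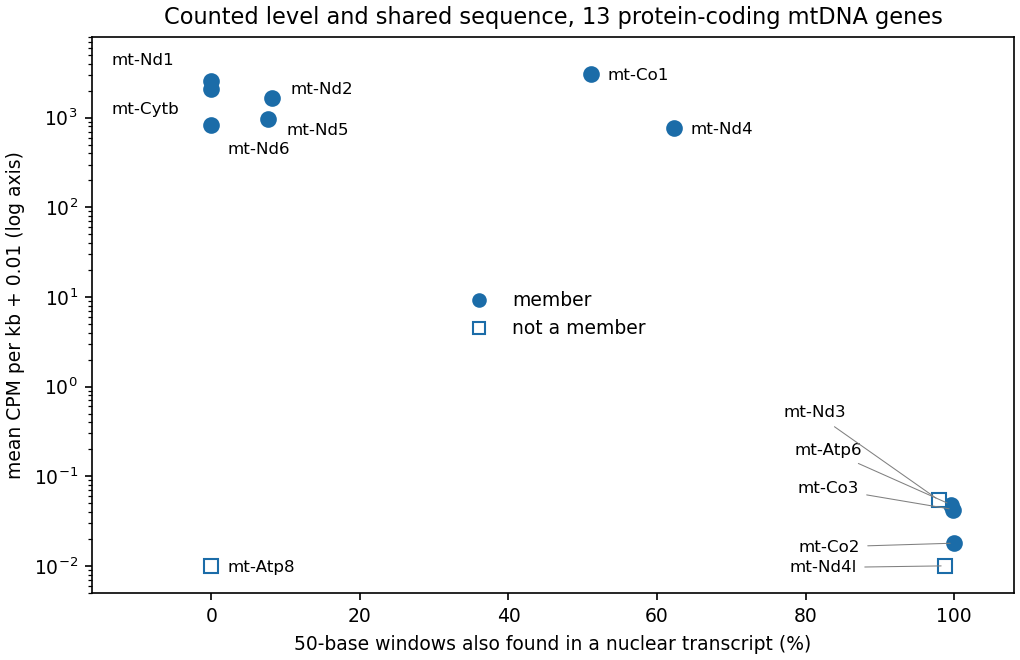
Mean level over the 6 libraries in CPM per kb of gene length, plus 0.01, on a log axis, against the percent of the gene's 50-base windows that also occur in a nuclear transcript, for the 13 protein-coding mitochondrial genes. The 7 counted members lie at 62.2% shared or less, the 3 near-empty members at 99.5% or more, and mt-Atp8 has no count with 0% shared.

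The 6 libraries held 30714311 to 33923681 counts. The labelled cell type carried its markers: the 6 neuron markers summed to 4724 to 5166 CPM (counts per 1000000, scaled by the trimmed mean of M-values), with Map2, a dendritic microtubule protein, at 2163 to 2439 CPM. The 10 mitochondrial genes took 1.48% and 1.12% of all counts in PA + PS2 repeats 1 and 2, 1.18% and 1.67% in PA repeats 1 and 2, and 1.79% and 1.47% in control repeats 1 and 2. Summed, they were at 13023 ± 2652 CPM in PA + PS2, 14241 ± 3635 CPM in PA and 16291 ± 2061 CPM in the control (SD, n = 2 each). The groups overlapped. The PA libraries lay at 11671 and 16811 CPM and so spanned most of the range. PA + PS2 and the control also overlapped, with PA + PS2 repeat 1 at 14898.5 CPM and control repeat 2 at 14833.6 CPM.

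Per length, mt-Co1 was the most abundant of the counted messages and mt-Nd4 the least, with means over the 6 libraries of 3057 and 773 CPM per kb. Between them lay mt-Nd1 at 2545, mt-Cytb at 2069, mt-Nd2 at 1649, mt-Nd5 at 977 and mt-Nd6 at 836 CPM per kb. Neighbours in that order came close in single libraries: mt-Nd1 was at 1830 and mt-Cytb at 1609 CPM per kb in PA + PS2 repeat 2, and the 2 were at 2624 and 2575 in PA repeat 2. The order depends on how shared sequence is treated. Per 1000 windows found in no nuclear transcript, mt-Co1 had 6461 CPM, mt-Nd1 2682, mt-Cytb 2162, mt-Nd4 2122, mt-Nd2 1885, mt-Nd5 1086 and mt-Nd6 923, so that mt-Nd4 moved up by 3 places.

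Among the complex I messages, mt-Nd1 had 2614 and 1751 CPM in PA + PS2 repeats 1 and 2, 2095 and 2511 CPM in PA, and 3341 and 2300 CPM in the control. It was highest in control repeat 1 and lowest in PA + PS2 repeat 2, and the groups overlapped. The next gene along the genome, mt-Nd2, had 1846 and 1290 CPM in PA + PS2, 1458 and 1857 CPM in PA, and 2172 and 1649 CPM in the control. It had the same highest and lowest library as mt-Nd1. For mt-Nd4 the values were 1108 and 834 CPM in PA + PS2, 862 and 1251 CPM in PA, and 1242 and 1095 CPM in the control. Its highest library was PA repeat 2, a little above control repeat 1.

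The largest complex I message, mt-Nd5, had 1806 and 1288 CPM in PA + PS2, 1414 and 2155 CPM in PA, and 2129 and 1896 CPM in the control. Both PA + PS2 libraries lay below both control libraries, and the PA libraries lay on either side. For mt-Nd6, annotated on the other strand, values were 434 and 319 CPM in PA + PS2, 364 and 516 CPM in PA, and 530 and 442 CPM in the control. Here too both PA + PS2 libraries were below both control libraries, by a narrow margin between PA + PS2 repeat 1 and control repeat 2.

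Outside complex I, mt-Cytb had 2283 and 1841 CPM in PA + PS2, 1798 and 2946 CPM in PA, and 2833 and 2502 CPM in the control. The complex IV message mt-Co1 had 4808 and 3826 CPM in PA + PS2, 3681 and 5575 CPM in PA, and 5501 and 4949 CPM in the control. Both genes had their lowest and their highest value in the 2 PA libraries, and their PA + PS2 values were below both control values. With 2 libraries per group such a separation can arise by chance. How many of all genes separate in this way was not counted. Because the members moved together, mt-Nd5, mt-Nd6, mt-Cytb and mt-Co1 are not separate observations of it.

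**Figure D2:**
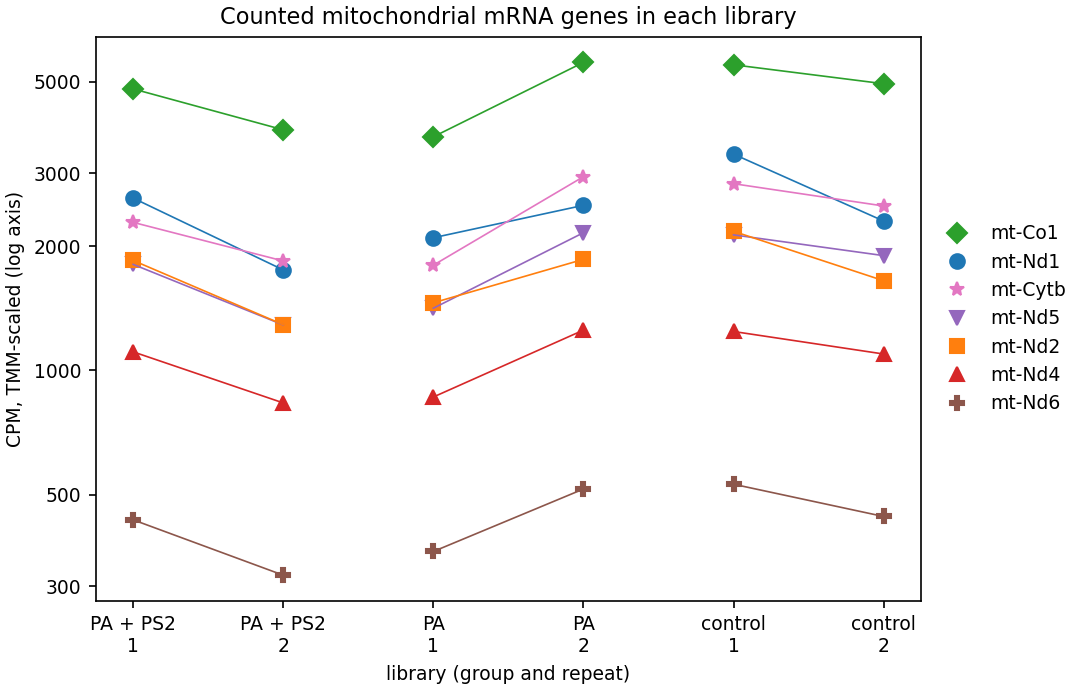
CPM of the 7 counted mitochondrial mRNA genes on a log axis in each of the 6 libraries, with lines joining the repeats of a group. From repeat 1 to repeat 2 all 7 lines fall in PA + PS2, rise in PA and fall in the control, and mt-Co1 is the highest in every library.

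The first comparison asks how cells with PA + PS2 differed from the control. All 7 tested members were lower in PA + PS2 within both repeats, and none passed the test. Within repeat 1 the log2 ratios ran between -0.35 (mt-Nd1) and -0.16 (mt-Nd4), and within repeat 2 between -0.56 (mt-Nd5) and -0.35 (mt-Nd2). The medians were -0.24 and -0.39, against 0.00 and 0.01 over all tested genes. Counting alone gives these single ratios a standard error of at most 0.019. In the fit over all 6 libraries the log2 fold change was -0.38 ± 0.25 for mt-Nd5, -0.37 ± 0.26 for mt-Nd1, -0.37 ± 0.25 for mt-Cytb and -0.37 ± 0.22 for mt-Nd6 (standard errors). It was -0.29 ± 0.22 for mt-Nd2, -0.28 ± 0.21 for mt-Co1 and -0.27 ± 0.21 for mt-Nd4. Their adjusted p-values by edgeR's quasi-likelihood test with Benjamini-Hochberg adjustment lay between 0.876 and 0.942. None of the 7 was called, and of all 17299 genes 0.0% were called (1178 genes had an unadjusted p under 0.05, and DESeq2 called 130 genes, none of them a member). With the repeat number in the model 0.699% of genes were called, and again no member.

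The second comparison asks what PA alone changed, and here the members moved together but in opposite directions in the repeats. In repeat 1 all 7 were lower in PA than in the control, by log2 ratios between -0.67 (mt-Nd1) and -0.53 (mt-Nd4), with a median of -0.58. In repeat 2 all 7 were higher in PA, by 0.13 (mt-Nd1) to 0.24 (mt-Cytb), with a median of 0.18. The medians over all tested genes were 0.01 in each repeat. In the fit the 7 log2 fold changes ran between -0.29 ± 0.26 (mt-Nd1, standard error) and -0.14 ± 0.22 (mt-Nd6), each smaller than 1.2 standard errors. All adjusted p-values were 1.00 by edgeR, 0.0% of all genes were called and 103 had an unadjusted p under 0.05, while DESeq2 called 0. With the repeat number in the model the share called was 0.0% as well.

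The third comparison asks what PS2 added to PA. It shares the PA libraries with the second comparison, and the members split by repeat again. All 7 were higher in PA + PS2 than in PA in repeat 1, by log2 ratios of 0.25 (mt-Nd6) to 0.39 (mt-Co1), and all 7 were lower in repeat 2, by ratios between -0.74 (mt-Nd5) and -0.52 (mt-Nd1). The medians were 0.34 and -0.59, against 0.00 in each repeat over all tested genes. In the fit the log2 fold change ran between -0.22 ± 0.22 (mt-Nd6, standard error) and -0.08 ± 0.26 (mt-Nd1), with adjusted p-values of 0.938 to 0.990 by edgeR. No member was called, against 0.0% of all genes (1332 had an unadjusted p under 0.05, and DESeq2 called 200 genes, none of them a member). With the repeat number in the model 1.52% of genes were called, and no member.

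**Figure D3:**
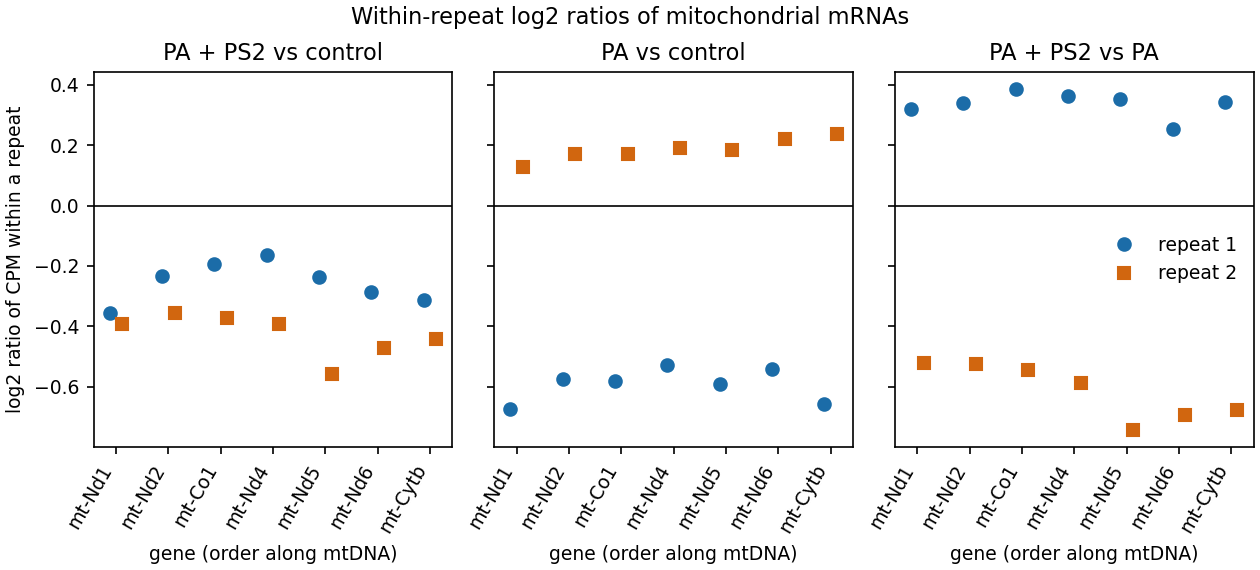
Log2 ratio of CPM between 2 libraries of the same repeat for each of the 7 counted members in order along the mitochondrial genome, for the 3 comparisons (circles, repeat 1; squares, repeat 2; the line marks no difference). The 7 genes lie close together in each repeat, below 0 in both repeats for PA + PS2 against the control and on opposite sides of 0 in the repeats for the comparisons that involve PA alone.

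Whether the members passed a test depended on the PA libraries and on the repeat number in the model. With the PA libraries left out and no repeat number in the model, 0 of 16750 genes were called for PA + PS2 against the control. With the repeat number in the model and the PA libraries left out of the fit, 6 of the 7 members were lower in PA + PS2 than in the control at an edgeR adjusted p under 0.05. That fit rests on 4 libraries, and 3.23% of its 16750 genes were called lower. Their log2 fold changes ran between -0.40 ± 0.09 (mt-Nd5, adjusted p = 0.00351 by edgeR) and -0.28 ± 0.08 (mt-Nd4, adjusted p = 0.0344 by edgeR, standard errors), and mt-Co1 at -0.29 ± 0.10 had an adjusted p of 0.0861 by edgeR. With the repeat number in the model and PA repeat 1 alone left out, 7 members were called lower in the same comparison (3.56% of genes), and with PA repeat 2 left out 6 (3.41%). Without PA repeat 2, all 7 were called lower in PA than in the control (0.142% of genes). Without PA repeat 1, all 7 were called lower in PA + PS2 than in PA (3.97% of genes). Leaving out the other PA library turned the sign round. With the repeat number, the members' median log2 fold change was 0.25 for PA against the control without PA repeat 1. It was 0.31 for PA + PS2 against PA without PA repeat 2. The fits here with the repeat number were added after the values were seen, leave 1 residual degree of freedom, and take the lone PA library to vary like the others. Whether the groups differed in different ways in the repeats could not be tested, since a term for group within repeat leaves no residual degrees of freedom.

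Over the 6 libraries the members moved mostly as one. The mean of the 7 genes' centred log2 CPM stood at 0.06 and -0.38 in PA + PS2 repeats 1 and 2, -0.28 and 0.23 in PA, and 0.32 and 0.05 in the control. This common value took 93.2% of the members' summed squared log2 deviations. Its SD over libraries was 0.28, against 0.08 for what remained of each gene. The highest library was PA repeat 2 for 4 members (mt-Co1, mt-Nd4, mt-Nd5 and mt-Cytb) and control repeat 1 for 3 (mt-Nd1, mt-Nd2 and mt-Nd6). The lowest was PA + PS2 repeat 2 for 5 members and PA repeat 1 for 2 (mt-Co1 and mt-Cytb). All 7 share the libraries and their scaling, and leaving all mitochondrial genes out of the scaling moved no fitted median by as much as 0.02.

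A smaller pattern lay within the members and followed the repeat number. As a share of the members' summed counts, mt-Nd1 had 14.9% to 15.7% in the 3 libraries of repeat 2 and 17.5% to 18.8% in the 3 of repeat 1. Its neighbour mt-Nd2 had 11% to 11.6% in repeat 2 and 12.2% to 12.5% in repeat 1. The shares of mt-Co1 and mt-Cytb went the other way. Shares add up to a whole, so a fall in some raises others. As levels, mt-Co1 and mt-Cytb had log2 ratios of repeat 2 over repeat 1 of -0.33 and -0.31 in PA + PS2. The ratios were 0.60 and 0.71 in PA, and -0.15 and -0.18 in the control. For mt-Co1 the share was 33.2% to 34.3% in repeat 2 and 31.0% to 32.3% in repeat 1. For mt-Cytb it was 16.5% to 17.5% in repeat 2 and 15.3% to 16.0% in repeat 1. None of these 4 genes had ranges that overlapped between the repeats. With 3 libraries per repeat such a separation can arise by chance. How many of all genes separate the repeats in this way was not counted, and shares of one sum are not separate observations. The repeats overlapped for mt-Nd4 (7.38% to 7.48% in repeat 2, 7.0% to 7.44% in repeat 1), mt-Nd5 and mt-Nd6. Within groups, the share of mt-Nd4 was higher in repeat 2 in 3 of 3 groups, by 0.01, 0.01 and 0.08 on the log2 scale in PA + PS2, PA and the control. Its Wilson intervals overlapped between the repeats in PA + PS2 and in PA, but not in the control. The share of mt-Nd6 was lower in repeat 2 in 3 of 3 groups, with Wilson intervals that overlapped in each, and that of mt-Nd5 was lower in PA + PS2 and higher in PA and the control. The SD of the log2 share over the libraries was largest for mt-Nd1 at 0.13 and smallest for mt-Nd4 at 0.04, which is 28.0 and 4.67 times the SD that counting alone gives. Wilson intervals at 95% on single shares were narrow; for mt-Nd1 in PA + PS2 repeat 1 the share of 17.5% had bounds of 17.4% and 17.7%. Such intervals cover counting error only.

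**Figure D4:**
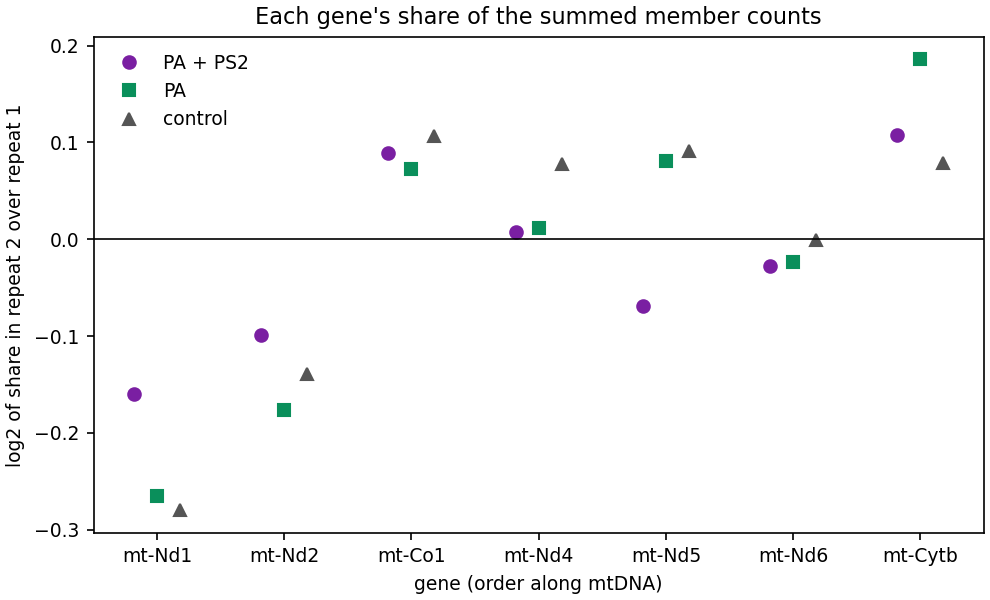
Log2 of each member's share of the summed member counts in repeat 2 over its share in repeat 1, for PA + PS2 (circles), PA (squares) and the control (triangles), with genes in order along the mitochondrial genome. In all 3 groups mt-Nd1 and mt-Nd2 lie below 0 and mt-Co1 and mt-Cytb above 0, while mt-Nd5 lies on both sides.

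Set against mt-Cytb, the count of mt-Nd1 was 0.852 to 0.951 in repeat 2 and 1.14 to 1.18 in repeat 1, so that the order of the 2 genes turned round in all 3 groups. The same ratio for mt-Nd2 was 0.631 to 0.701 in repeat 2 and 0.767 to 0.811 in repeat 1. Ratios between some other members overlapped between the repeats: mt-Co1 over mt-Cytb stayed within 1.89 to 2.11, mt-Nd4 over mt-Nd5 within 0.577 to 0.647 and mt-Nd6 over mt-Nd5 within 0.233 to 0.257. Not all did: mt-Nd6 over mt-Cytb was 0.173 to 0.177 in repeat 2 and 0.187 to 0.202 in repeat 1, and mt-Nd1 over mt-Nd2 was 1.35 to 1.40 in repeat 2 and 1.42 to 1.54 in repeat 1. These ratios were chosen after the values were seen. As levels and not shares, no member differed between the repeats by edgeR with group as the other term, against 4.89% of all genes called. The log2 fold change of repeat 2 over repeat 1 was -0.29 ± 0.23 for mt-Nd1 (standard error, adjusted p = 0.624), -0.19 ± 0.22 for mt-Nd2 (adjusted p = 0.754), and between -0.07 and 0.07 for the other 5. When PA repeat 1 was left out 6 members were called lower in repeat 2 (5.17% of genes), and when PA repeat 2 was left out 5 were (5.13%). Each group's own log2 ratio of repeat 2 over repeat 1 for the summed members was -0.42 in PA + PS2, 0.53 in PA and -0.26 in the control.

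The 2 ribosomal RNA genes, which lie just before mt-Nd1 on the same strand, followed the members in part. The small-subunit gene mt-Rnr1 (chrM:70-1024) had 394 and 282 CPM in PA + PS2, 332 and 366 CPM in PA, and 515 and 364 CPM in the control. The large-subunit gene mt-Rnr2 (chrM:1094-2675) had 738 and 532 CPM in PA + PS2, 640 and 691 CPM in PA, and 858 and 700 CPM in the control. Both were highest in control repeat 1 and lowest in PA + PS2 repeat 2, as mt-Nd1 was. Their log2 fold changes for PA + PS2 against the control were -0.38 ± 0.21 and -0.30 ± 0.17 (standard errors; adjusted p = 0.862 and 0.857 by edgeR). In repeat 2, where the counted members were higher in PA than in the control, their log2 ratios were 0.01 (mt-Rnr1) and -0.02 (mt-Rnr2). The ratio of mt-Rnr1 to mt-Nd1 kept within 0.146 to 0.161 over the 6 libraries, and that of mt-Rnr2 to mt-Nd1 within 0.257 to 0.305. Other ratios varied more: mt-Rnr2 over mt-Cytb was 0.235 to 0.289 in repeat 2 and 0.303 to 0.356 in repeat 1. Ribosomal RNA of the mitochondrion carries at most a short tail, so its level also depends on how RNA was selected, and the labels name both poly(A) RNA and a total RNA kit.

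Of the 22 mitochondrial tRNA genes only mt-Tp, the minus-strand tRNA for proline at chrM:15356-15422, had more than 20 counts in any library. It had 70.8 and 38 CPM in PA + PS2, 61.7 and 44.0 CPM in PA, and 82.0 and 47.4 CPM in the control. It fell in repeat 2 relative to repeat 1, by 0.73 ± 0.08 on the log2 scale (standard error, adjusted p = 0.000431 by edgeR with group as the other term), and was lower in repeat 2 in all 3 groups. Strand was not stated, so these counts may include reads of the opposite strand, which was not tested.

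The nuclear partners of these genes varied less between the libraries. Over 11 lists of nuclear genes for the respiratory complexes and for mitochondrial transcription, RNA processing, translation, biogenesis and stress, 220 genes were tested. None passed the test in any of the 3 comparisons by edgeR, with or without the repeat number in the model. Their median log2 fold change was 0.03 for PA + PS2 against the control, 0.01 for PA against the control and 0.03 for PA + PS2 against PA. Each list's summed level stayed within a range of 0.10 to 0.22 on the log2 scale over the 6 libraries, against 0.67 for the sum of the members. Complex I subunits from the nucleus, 36 genes, had a median log2 fold change of 0.02 for PA + PS2 against the control. In the same comparison the median was -0.02 for 9 complex III subunits, -0.02 for 11 complex IV subunits, -0.03 for 15 ATP synthase subunits and -0.03 for the 4 subunits of complex II, which has no mitochondrially encoded part.

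By name, the ATP synthase subunit Atp5b had 977 and 1032 CPM in PA + PS2, 1029 and 1094 CPM in PA, and 1048 and 1065 CPM in the control. The complex IV subunit Cox4i1 had 165 and 184 CPM in PA + PS2, 177 and 170 CPM in PA, and 178 and 175 CPM in the control. In PA + PS2 repeat 2, where the members' sum was lowest, Cox4i1 was at its highest, while Atp5b was highest in PA repeat 2. Each nuclear list's sum was higher in PA + PS2 repeat 2 than in PA + PS2 repeat 1. Centred on the mean of the libraries, the complex I list stood at -0.06 in repeat 1 and 0.09 in repeat 2 on the log2 scale. The complex III list stood at -0.07 and 0.02.

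Among genes that act on mitochondrial DNA and RNA, Tfam, which packages the genome and starts its transcription, had 39.5 and 45.4 CPM in PA + PS2, 39.1 and 40.8 CPM in PA, and 38.5 and 41.6 CPM in the control. Polrmt, the mitochondrial RNA polymerase, averaged 30.7 ± 0.78 CPM in PA + PS2, 32.1 ± 1.73 CPM in PA and 29.3 ± 1.94 CPM in the control (SD, n = 2 each). Lrpprc, which stabilises mitochondrial mRNAs, averaged 124 ± 0.43 CPM in PA + PS2, 121 ± 2.93 CPM in PA and 118 ± 1.02 CPM in the control (SD, n = 2 each). The 18 transcription and genome maintenance genes had a median log2 fold change of 0.18 for PA + PS2 against the control, with 15 above 0 and none called. The median was 0.07 over 19 RNA processing genes, 0.07 over 12 translation factors, 0.05 over 77 ribosomal proteins, 0.19 over 8 biogenesis regulators and 0.02 over 11 stress-response genes in the same comparison. None of those was called, and the median of all genes was 0.01.

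**Figure D5:**
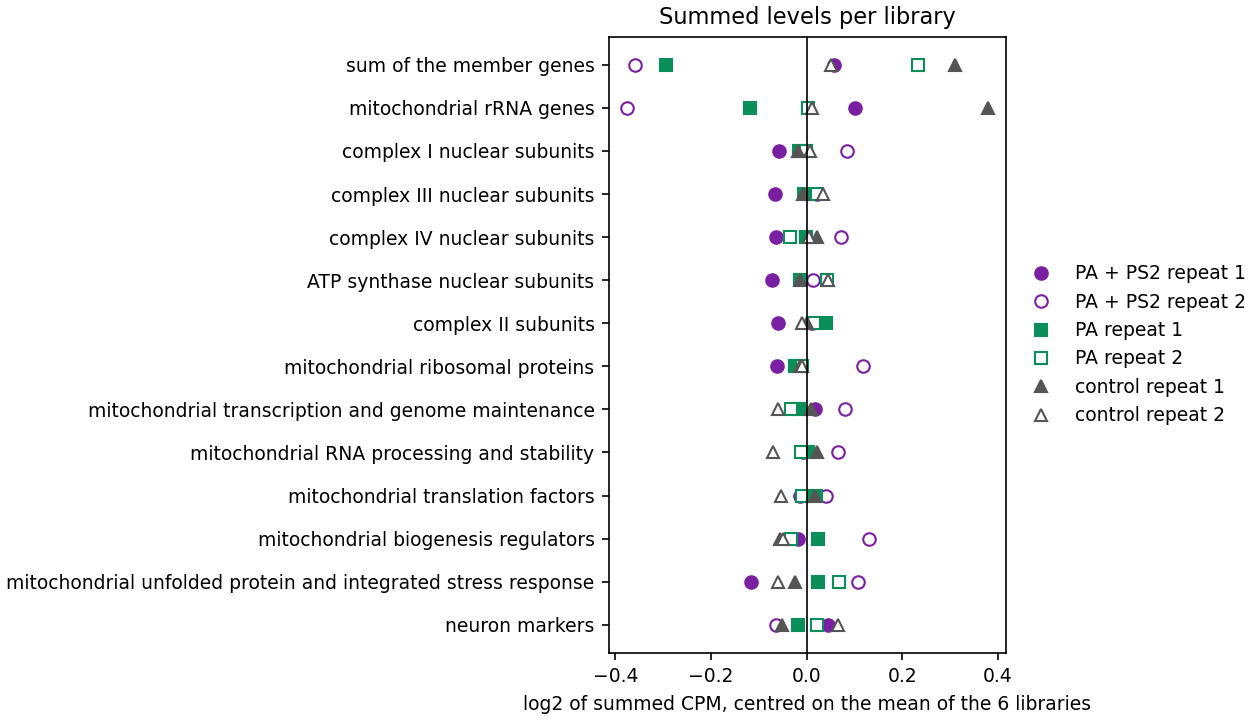
Log2 of the summed CPM of the members, of the mitochondrial rRNA genes, of 11 lists of nuclear mitochondrial genes and of the neuron markers, centred on the mean of the 6 libraries (filled symbols, repeat 1; open symbols, repeat 2). The members span 0.67 and the rRNA genes 0.75, while each nuclear mitochondrial list spans 0.22 or less.

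The summed markers of astrocytes, of progenitors and of fibroblast and mural cells were lower, and those of oligodendrocytes higher, in both PA + PS2 libraries than in both control libraries. All 4 sums overlapped between PA and the control, and that of fibroblast and mural cells also between PA + PS2 and PA. How many of all genes separate PA + PS2 from the control in this way was not counted. In these bulk samples fewer cells of a type and less RNA per cell cannot be told apart. The 8 astrocyte markers summed to 39.1 and 54.2 CPM in PA + PS2, 70.4 and 215 CPM in PA, and 55.6 and 120 CPM in the control. The margin between PA + PS2 repeat 2 and control repeat 1 was narrow. Slc1a3 was the largest part, at means of 21.6 CPM in PA + PS2 and 44.0 CPM in the control. In the fit 6 of the 8 were below 0 in this comparison. S100b (means of 0.61 and 0.07 CPM) and Gfap (0.50 and 0.31 CPM) were higher in PA + PS2, at very low levels. The 5 progenitor and cycling-cell markers summed to 65.7 and 80.2 CPM in PA + PS2, 127 and 258 CPM in PA, and 109 and 209 CPM in the control. The 6 oligodendrocyte markers went the other way, with 65.3 and 95 CPM in PA + PS2, 48.1 and 37.4 CPM in PA, and 37.9 and 34.3 CPM in the control. Mog among them changed little, with a log2 fold change of 0.15 for PA + PS2 against the control. The 6 fibroblast and mural markers summed to 54.8 and 17.6 CPM in PA + PS2, 81.0 and 48.3 CPM in PA, and 69.1 and 59.3 CPM in the control. Col1a1 was the largest part, at means of 17.8 CPM in PA + PS2 and 33.1 CPM in the control. In the fit 5 of the 6 were below 0 in this comparison. Not all separated: Col1a2 was at 14.0 CPM in PA + PS2 repeat 1 and 7.11 CPM in control repeat 2. Lum was little changed, with means of 0.46 and 0.45 CPM.

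No marker was called without the repeat number in the model. With it, the markers called included Cldn11 of oligodendrocytes, which rose, and Nes and Cdk1 of progenitors, which fell, in PA + PS2 against the control by edgeR. Cldn11 was at very low levels, with means of 1.19 CPM in PA + PS2 and 0.09 CPM in the control. Against PA, Gad1 (an inhibitory neuron gene), the astrocyte genes Sox9, Aldoc and Gja1, the mural genes Pdgfrb and Rgs5, and Nes and Cdk1 fell. Of all genes, 0.699% were called against the control and 1.52% against PA. No marker was called for PA against the control. The 6 microglia markers summed to 2.96 to 5.08 CPM and the 4 endothelial markers to 1.94 to 3.52 CPM, with up to 1 and up to 2 of them at 0 in a library. The 8 measured genes for RNAs without a poly(A) tail summed to 21.3 and 32.7 CPM in PA + PS2, 23.7 and 48.5 CPM in PA, and 27.4 and 38.5 CPM in the control, with 0 of 5 tested genes called in any comparison. The part of these markers in the members' levels was not tested.

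Outside the mitochondrial genome, the 6 genes whose pattern over the libraries came closest to the members' mean included P4ha2, Smim18, Coch, Far2 and Ccdc148. Likeness was the root mean square distance between centred log2 CPM profiles, over 10766 nuclear genes with a mean of at least 5 CPM. It was 0.067 for P4ha2, a prolyl hydroxylase of collagen synthesis, 0.068 for Smim18, 0.082 for Coch, 0.090 for Far2, a fatty acyl-CoA reductase, and 0.104 for Ccdc148. The members themselves lay at 0.034 (mt-Nd6) to 0.117 (mt-Nd1) from their own mean. The median gene lay at 0.282 and a gene with no change in any library at 0.252. P4ha2, at 7.42 and 5.39 CPM in PA + PS2, 5.81 and 7.73 CPM in PA, and 8.66 and 6.46 CPM in the control, was measured at far lower levels than any counted member. This list is a description over 6 points, and none of the 6 genes passed the test in any comparison by edgeR.

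Of 16 nuclear copies with a row, 4 reached 1 CPM in a library. Gm13340, on chromosome 2 and 97.6% identical to mt-Co1 over its whole length, had 9.78 and 10.1 CPM in PA + PS2, 9.62 and 15.1 CPM in PA, and 7.41 and 16.5 CPM in the control. It did not follow mt-Co1: control repeat 1 held its lowest value, where mt-Co1 was near its highest. Gm28438, 99.7% identical to mt-Nd3, had 3.22 and 3.54 CPM in PA + PS2, 4.0 and 5.43 CPM in PA, and 3.48 and 6.31 CPM in the control. Gm28439, identical to mt-Nd4 over 876 of its 1378 bases, lay at 0.714 to 1.79 CPM, and Gm13341, a copy of mt-Co2 on chromosome 2, at 0.941 to 1.70 CPM. No copy above 1 CPM was called in any comparison by edgeR.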

How the data were processed

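RNA from 6 libraries was sequenced. The authors deposited a table of whole-number counts per Ensembl gene for each library; per the submitters' processing notes, cutadapt 4.2, STAR 2.7.5, HTSeq 2.0.2 and DESeq2 1.14.1 were used with build mm10. The sources used here give no strand, read length or handling of reads with several matches. The counts were read as deposited, and 54079 of 54232 IDs were matched to GENCODE M21 (GRCm38).

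Tests used edgeR 4.0.16 (R 4.3.3) with filterByExpr, TMM factors and the robust quasi-likelihood F test in a single fit of the 3 groups to all 6 libraries (3 residual degrees of freedom), and genes were called at a Benjamini-Hochberg adjusted p under 0.05 over all genes. The script was checked on simulated counts with larger changes than those of the members, less spread than this fit found and no difference between repeats. That check does not show whether changes of the members' size could be found here. CPM are TMM-scaled; within-repeat ratios are of CPM. Nuclear copies were sought with blastn 2.17.0 (identity of at least 90% over at least 100 bases) among GENCODE transcripts.

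The members, the 19 gene lists and the rule for named genes were chosen with earlier results of these data known. The rule names all members, the other mitochondrial mRNA and rRNA genes, the 6 nuclear genes of closest pattern, up to 4 genes per list, and copies of at least 1 CPM. Genes outside it are the tRNA gene mt-Tp and the markers called. A gene of closest pattern and a called marker are not reported here.

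Repeat 1 minus repeat 2 differences correlated at 0.346 between PA and control, 0.361 between PA + PS2 and control and 0.213 between PA + PS2 and PA. The pairing comes from the data, with 2 pairs per comparison; library names carry the same T number in repeat 1 and different ones in repeat 2. The repeat number as a block leaves 2 residual degrees of freedom. Alternatives were other scalings, filters, DESeq2 1.42.0, the 2 groups alone, the block, and leaving out each library.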

Additional observations from a re-analysis of the deposited data

How the results depend on the processing

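Medians and counts of called members kept their direction and their side of the threshold under other scalings, other filters, DESeq2, the 2 groups alone and the replicate block over all 6 libraries: the median log2 fold change of the 7 members ran from -0.38 to -0.37 for PA + PS2 against the control, -0.21 to -0.17 for PA against the control and -0.13 to -0.10 for PA + PS2 against PA. Counts over all genes moved. For PA + PS2 against the control 425 genes were called with no filter, 130 by DESeq2 and 121 with the replicate block, against 0 in edgeR without these changes. For PA + PS2 against PA the counts were 501, 200 and 263, and for PA against the control 2 with no filter. The replicate block over all 6 libraries called no member in any comparison. With the replicate block and only the groups compared, 6 members were called for PA + PS2 against the control.

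Without the block, leaving out single libraries gave 0 to 29 called genes for PA + PS2 against the control and 0 to 13 for PA + PS2 against PA, highest in each without PA + PS2 repeat 1, and 0 for PA against the control. With the block, the 121 genes called for PA + PS2 against the control became 4 without control repeat 2, 15 without PA + PS2 repeat 2, 137 without control repeat 1, 816 without PA repeat 2, 874 without PA repeat 1 and 942 without PA + PS2 repeat 1. For PA + PS2 against PA the 263 became 32 without PA + PS2 repeat 2 and 1021 without PA + PS2 repeat 1, the lowest and highest over the 6 libraries. Over fits with and without the block that leave out 1 library, called members ranged from 0 to 7 in each of the 3 comparisons, and from 0 to 6 for repeat 2 against repeat 1. For PA + PS2 against the control the median ran from -0.61 without PA + PS2 repeat 1 to -0.062 without PA + PS2 repeat 2, and the fold change of mt-Nd4 from -0.59 to 0.0032. For PA against the control the ranges were -0.69 to 0.13 for mt-Nd1, -0.62 to 0.20 for mt-Nd2, -0.63 to 0.21 for mt-Co1, -0.60 to 0.25 for mt-Nd4, -0.68 to 0.26 for mt-Nd5, -0.60 to 0.26 for mt-Nd6 and -0.70 to 0.27 for mt-Cytb. For PA + PS2 against PA they were -0.51 to 0.31 for mt-Nd1, -0.49 to 0.32 for mt-Nd2, -0.50 to 0.35 for mt-Co1, -0.53 to 0.31 for mt-Nd4, -0.66 to 0.28 for mt-Nd5, -0.64 to 0.21 for mt-Nd6 and -0.64 to 0.32 for mt-Cytb. Leaving out PA repeat 1 or 2 gave the ends of these last ranges, and the cause was not tested. Of 483 values of single members under alternatives, 407 kept direction and side of the threshold, 33 were newly past it, in fits with the block that left out 1 or both PA libraries, and 43 changed sign, all with a library left out. Shares of the sum over 13 genes in place of 10 left the SD of the log2 share of mt-Nd1 at 0.13.

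Counting error is small beside the spread between libraries: it is at most 0.019 for a log2 ratio of a counted member, while the standard error of a member's log2 fold change in the edgeR fit over all 6 libraries without the block is 0.21 to 0.26. The low counts of mt-Co2, mt-Co3 and mt-Atp6 allow no comparison between groups.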
